A study of Mus musculus with 12 samples.

Results

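The RNA levels of 10 genes that mark macrophages and dendritic cells were compared between the skin of mice with atopic dermatitis (AD) and that of mice with AD and diet-induced obesity. The genes were chosen by name and were Cd68, Adgre1, Csf1r, C1qa, C1qb, C1qc, Cd163, Mrc1, Lyz2 and Itgax, 10 of the 23282 gene entries counted. All 10 had counts high enough to be tested. The skin came from male wild-type C57BL/6J mice that were 5 weeks old on arrival, and 1 library was made from each mouse. In both groups AD-like lesions were induced with 0.5% DNCB (2,4-dinitrochlorobenzene, a contact sensitizer) applied 3 times a week for 6 weeks. The 5 AD mice ate normal chow, whereas the 7 mice labelled AD+OB, named HF + AD here, were fed a diet with 60 kcal% fat for 10 weeks, of which 4 weeks preceded DNCB. Mice without DNCB are not analysed here, so the levels below cannot be set against healthy skin.

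Macrophages are tissue phagocytes that engulf dying cells and debris, and in skin they lie mainly in the dermis, beside dendritic cells that carry antigen to lymph nodes. Their survival depends on signals through the CSF1 receptor. They are also a main source of C1q, the recognition molecule of the classical complement pathway, which binds immune complexes and dying cells and is built of A, B and C chains.

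The genes of the C1q chains, C1qb, C1qc and C1qa in that order, lie side by side on the minus strand of chromosome 4, within 18675 bases at chr4:136880129-136898803 (GENCODE M21, GRCm38). The 250 bases before the RefSeq starts of C1qb (chr4:136886201-136886450, minus strand, GRCm38.p6) and C1qc (chr4:136892915-136893164, minus strand) are printed because results described below turn on the chains of C1q. Capitals mark the ETS core GAGGAA, the short motif bound by PU.1 (gene Spi1) and related factors of myeloid cells, or its reverse complement.
C1qb: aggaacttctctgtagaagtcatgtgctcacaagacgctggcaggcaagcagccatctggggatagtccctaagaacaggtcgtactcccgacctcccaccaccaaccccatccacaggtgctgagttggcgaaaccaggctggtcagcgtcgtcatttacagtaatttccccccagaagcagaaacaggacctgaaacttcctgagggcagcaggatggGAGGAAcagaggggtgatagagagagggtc
C1qc: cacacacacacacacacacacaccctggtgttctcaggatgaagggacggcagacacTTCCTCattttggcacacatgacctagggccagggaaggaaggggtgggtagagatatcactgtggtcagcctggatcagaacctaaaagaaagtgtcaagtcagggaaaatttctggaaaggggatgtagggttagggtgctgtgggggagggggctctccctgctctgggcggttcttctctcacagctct
In C1qb the motif stood on the gene's own strand, 30 to 25 bases before the start, and in C1qc on the other strand, 193 to 188 bases before it. The GENCODE start of C1qc lies within the printed window. Both strands were searched, and the ETS core was present in 23.3% of the 32851 RefSeq promoters of this length. The AP-1 site TGACTCA (4.46% of promoters) and the TATA box TATAAA (12.4%), were not found in either window. A match is a description of letters and not a binding site. RefSeq promoters were at hand for 7 of the 10 genes (C1qb, C1qc, Cd68, Cd163, Mrc1, Lyz2 and Itgax), and the ETS core also occurred in those of Mrc1 and Cd68.

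Sequencing of mRNA 3′ ends gave 9746937 to 11688979 counts in the AD libraries and 10726845 to 13462434 in the HF + AD libraries. Between 13100 and 15063 genes had a count in an AD library, fewer than the 15522 to 16677 of the HF + AD libraries. The number of counts that 1 sequenced molecule gave was estimated at 12.01 to 32.2 in the AD libraries and 3.86 to 7.29 in the HF + AD libraries. By this estimate the AD values rest on fewer molecules, and the groups do not overlap in either measure. Real differences between the mice of a group would also raise the estimate. The median r to the own group was 0.881 to 0.919 in AD and 0.958 to 0.967 in HF + AD. AD mouse 1 had the highest estimate and the lowest median correlation with its own group (r = 0.881 across genes), and where the call of a marker turned on it, the value without it is given. AD mouse 2 came next in both, with 29.2 counts per molecule and r = 0.892. It also had the lowest total counts (9746937) and the fewest genes with a count (13100). The part of these library differences in the results was not tested. Krt5, the keratin of basal keratinocytes, lay between 2232 and 6641 CPM in the 12 libraries labelled skin. Levels are given in counts per 1000000 (CPM) with TMM-scaled totals. A count of 0 allows up to 3 counts, between 0.223 and 0.308 CPM, for counting error only, while 3 molecules would stand for 3.17 to 8.99 CPM in the AD libraries by that estimate.

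None of the 10 genes was called between HF + AD and AD at an adjusted p under 0.05 by edgeR's quasi-likelihood test with Benjamini-Hochberg adjustment over 14163 genes, of which 9.20% were called (4.43% higher and 4.77% lower in HF + AD). The count was also 0 with DESeq2, which called 13.8% of 14135 genes, with limma-trend and with the two-group test of log2 values. At an unadjusted p under 0.05, 3 of the 10 were higher in HF + AD (C1qa, C1qc and Cd163), against 12.3% of all genes tested, and none was lower. The fitted log2 fold change was above 0 for 9 of the 10, the exception being Adgre1, against 51.7% of all genes tested. The median log2 fold change of the 10 was 0.94, beside 0.023 over all genes. Without AD mouse 1, 3 of the 10 were called higher (Csf1r, C1qa and C1qc), against 5.38% of 14410 genes. That mouse had the highest AD level of each of these 3 genes, so leaving it out had to raise their fold changes. The count of 3 is therefore no support for a difference between the groups. Without AD mouse 2, 0 of the 10 were called and 1 had an unadjusted p under 0.05. With all 12 mice, the values of the groups lay apart without overlap in none of the 10, against 5.45% of all genes tested. In whole skin, fewer or more cells of a type and less or more RNA per cell cannot be told apart.

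**Figure D1:**
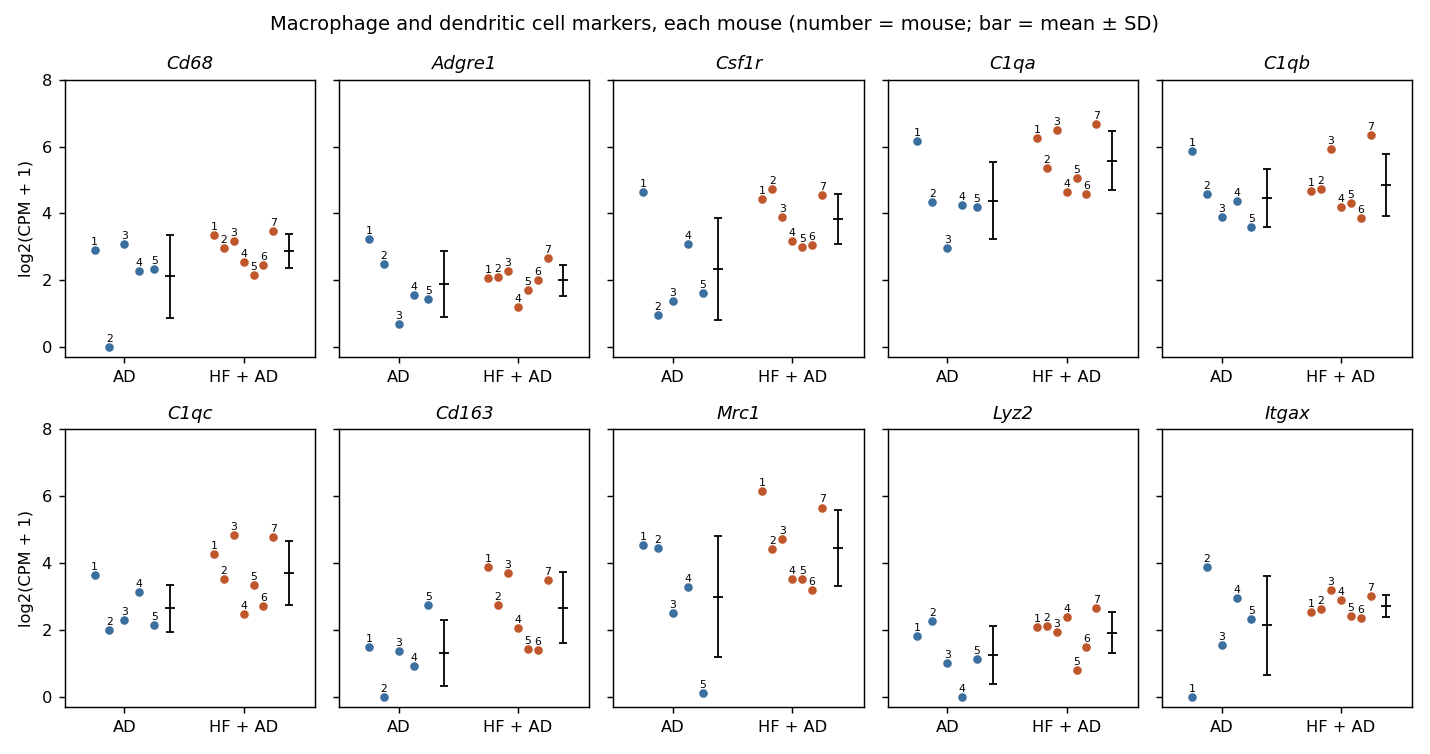
Level of each of the 10 marker genes by mouse, as log2(CPM + 1) on the vertical axis, in the 5 AD and 7 HF + AD mice; each numbered point is 1 mouse and the bar is the group mean ± SD. In all 10 genes the groups overlap, and AD mouse 1 lies at the top of its group for the C1q chains and Csf1r.

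C1qa encodes the A chain of C1q. Its level in AD mice 1 to 5 was 70.5, 19.4, 6.86, 18.2 and 17.2 CPM. In the 7 HF + AD mice it ranged from 23.2 to 101 CPM with a median of 39.8. All 7 HF + AD mice lay above 4 of the 5 AD mice, and only AD mouse 1 reached into their range. The fitted log2 fold change was 1.06 (SE 0.50, edgeR adjusted p = 0.193), and the exact permutation test of log2(CPM + 1) gave p = 0.068. Without AD mouse 1 the log2 fold change was 1.84 (SE 0.43, edgeR adjusted p = 0.0166).

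C1qc encodes the C chain. The AD mice measured 11.5, 3.00, 3.94, 7.78 and 3.44 CPM, and the HF + AD mice from 4.61 to 27.5 CPM, with a median of 10.5. AD mice 1 and 4 lay within the range of HF + AD, and the other three below it. C1qc had the smallest p of the 10 genes, with a log2 fold change of 1.30 (SE 0.51, edgeR unadjusted p = 0.0202, adjusted p = 0.116). Without AD mouse 1 it was 1.69 (SE 0.52, edgeR adjusted p = 0.0482).

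C1qb encodes the B chain. The AD mice measured 57.6, 22.8, 13.8, 19.9 and 11.03 CPM, and the HF + AD mice from 13.5 to 79.9 CPM, with a median of 24.6. The groups overlapped over most of their range, and the log2 fold change was 0.45 (SE 0.47, edgeR adjusted p = 0.603). Without AD mouse 1 it was 1.03 and not called (edgeR adjusted p = 0.144), and without HF + AD mouse 7 it was 0.091.

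Csf1r encodes the receptor for CSF1 and IL-34, on which most tissue macrophages depend. Its AD values of 24.2, 0.931, 1.61, 7.43 and 2.08 CPM were spread more widely than the HF + AD values, which ran from 7.02 to 25.4 CPM with a median of 13.98. In AD mice 2, 3 and 5 Csf1r lay below every HF + AD mouse, and in AD mouse 1 it lay above all but 1 of them. The log2 fold change was 1.04 (SE 0.66, edgeR adjusted p = 0.354; exact permutation p = 0.059). Without AD mouse 1 it was 2.30 (SE 0.57, edgeR adjusted p = 0.0202). In 3 of the 5 AD mice the level of Csf1r lay under what 3 molecules would stand for. The gene overlaps Hmgxb3 on the opposite strand, and how the counting used strand is not given in the sources used here, so reads of the pair may be mixed. Hmgxb3 ranged from 69.8 to 113 CPM in AD and from 65.0 to 97.5 CPM in HF + AD.

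Cd163 encodes the scavenger receptor for haemoglobin bound to haptoglobin, and Mrc1 the mannose receptor CD206. Both are typical of resident dermal macrophages. Cd163 measured 1.81, 0, 1.61, 0.884 and 5.70 CPM in AD and from 1.63 to 13.8 CPM in HF + AD, with a median of 5.73. It had the largest log2 fold change of the 10 genes, 1.77 (SE 0.84, edgeR unadjusted p = 0.0496, adjusted p = 0.199; exact permutation p = 0.056). The estimate was sensitive to single mice and ran from 1.46 to 2.67 when each was left out in turn. Mrc1 measured 22.4, 21.0, 4.74, 8.75 and 0.0904 CPM in AD and from 8.24 to 71.1 CPM in HF + AD, with a median of 20.4. The Mrc1 value of AD mouse 5 was a single count, and HF + AD mice 1 and 7 stood above all others. Its log2 fold change was 1.30 (SE 0.72, edgeR adjusted p = 0.284).

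Cd68 encodes a lysosomal glycoprotein of phagocytes. It was at 6.44, 0, 7.47, 3.89 and 4.07 CPM in AD and from 3.46 to 10.1 CPM in HF + AD, with a median of 6.89. The 0 of AD mouse 2 allows up to 0.308 CPM at 3 counts, but 3 molecules in that library would stand for 8.99 CPM, above all but 2 of the HF + AD values. The log2 fold change was 0.62 (SE 0.67, edgeR adjusted p = 0.625), and 0.30 without AD mouse 2.

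Adgre1 encodes F4/80, a surface receptor used to stain mouse macrophages. It was at 8.43, 4.55, 0.606, 1.94 and 1.72 CPM in AD and from 1.30 to 5.41 CPM in HF + AD, with a median of 3.16. The highest value of all 12 mice was that of AD mouse 1, and the log2 fold change of -0.12 (SE 0.64, edgeR adjusted p = 0.939) turned to 0.54 without it. The direction also turned with limma-trend (0.25), so none is given for Adgre1.

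Lyz2 encodes lysozyme M, an antibacterial enzyme of myeloid cells. It was at 2.54, 3.83, 1.01, 0 and 1.18 CPM in AD and from 0.749 to 5.26 CPM in HF + AD, with a median of 3.23, and its log2 fold change was 0.84 (SE 0.84, edgeR adjusted p = 0.584). Reads of its close copy Lyz1, at 4.24 to 16.4 CPM in AD and 8.70 to 26.5 CPM in HF + AD, may be shared with it, so the level of Lyz2 is uncertain. With 1 mouse left out its log2 fold change ran from 0.53 (without AD mouse 4) to 1.37 (without AD mouse 2).

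Itgax encodes CD11c, the integrin chain used to mark dendritic cells, which some macrophages also carry. It was at 0, 13.9, 1.92, 6.72 and 3.98 CPM in AD and from 4.16 to 8.26 CPM in HF + AD, with a median of 5.19. The HF + AD values fell inside the wide AD range, and the log2 fold change was 0.12 (SE 0.72, edgeR adjusted p = 0.944). It turned to -0.19 without AD mouse 1, in which no count was made.

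**Figure D2:**
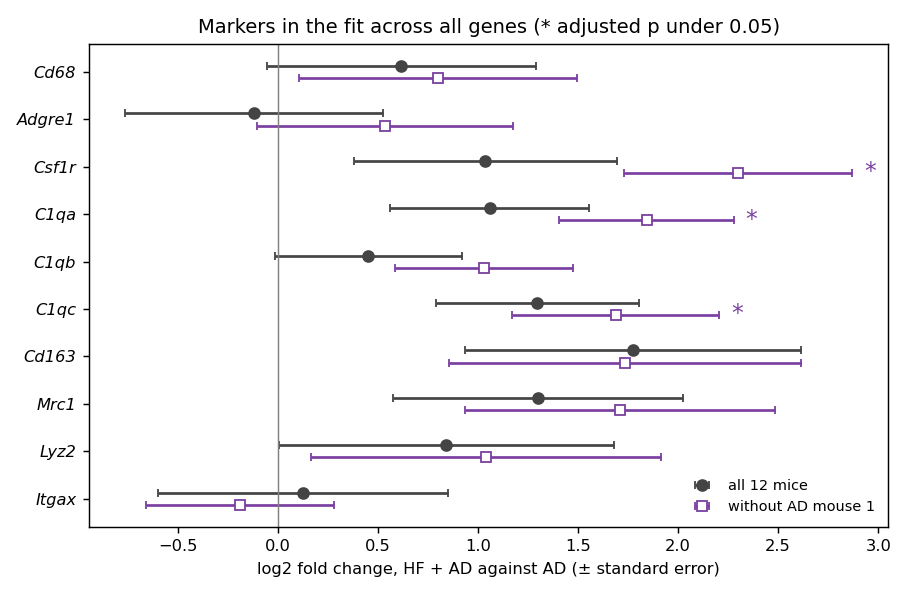
Log2 fold change of each marker gene, HF + AD against AD, with its SE from edgeR, over all 12 mice and without AD mouse 1; the vertical line marks no change. In the fit of all 12 mice 9 of the 10 estimates lie above 0 and none was called, and without AD mouse 1 those of Csf1r, C1qa and C1qc were called.

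By the exact permutation test of single genes, two-sided over the 792 splits of 12 mice into 5 and 7 (smallest possible p = 0.00126), none of the 10 had p under 0.05, whereas 28.4% of all genes tested did (16.6% in the direction of higher in HF + AD). The values were 0.104 for Mrc1, 0.138 for Lyz2, 0.145 for Cd68, 0.355 for Itgax, 0.467 for C1qb and 0.771 for Adgre1. Leaving out 1 mouse brought single genes under 0.05: without AD mouse 1 the exact permutation p was 0.0091 for C1qa, 0.012 for Csf1r and 0.036 for C1qc. Itgax had an exact permutation p of 0.039 without AD mouse 2, Csf1r of 0.045 without AD mouse 4 and Cd163 of 0.021 without AD mouse 5. C1qa (0.0498 and 0.048) and C1qc (0.032 and 0.039) passed the exact permutation test without HF + AD mouse 4 or 6, Cd163 (0.039 and 0.037) without mouse 5 or 6, and Lyz2 (0.045) without mouse 5. These p-values measure the spread between the mice of this one experiment.

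The levels of the markers were also set against each other among the 7 HF + AD mice. Summed over the 10 genes, the level in HF + AD mice 1 to 7 was 245, 146, 250, 84.7, 90.4, 72.7 and 318 CPM. Mouse 7 had the highest sum and mouse 6 the lowest. Cd68, Adgre1, Csf1r, C1qa, C1qb, C1qc, Cd163 and Mrc1 were each higher in mice 1, 2, 3 and 7 than in mice 4, 5 and 6. Lyz2 and Itgax did not follow this split. The libraries divided between the same mice. Mice 1, 2, 3 and 7 each had at least 12398847 total counts and 16044 genes with a count. Mice 4, 5 and 6 each had at most 12088622 total counts and 15854 genes with a count. Their estimated counts per molecule were all higher than those of mice 1, 2, 3 and 7. The part of these library measures in the split was not tested. In AD mice 1 to 5 the sum was 205, 89.3, 43.6, 75.5 and 50.5 CPM. Mouse 1 stood above the other AD mice and within the range of HF + AD. Of the 45 pairs of genes, all 45 had a Pearson r above 0 within HF + AD (n = 7, median 0.725, from 0.283 to 0.986), against 50% of all pairs of the 14163 genes tested. The 45 pairs are formed from 10 genes over the same 7 mice, so they are not independent and cannot be counted as separate results. Most single pairs did not pass the test.

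After adjustment over the 45 pairs, 2 pairs had an exact permutation p under 0.05, and both joined C1q chains. C1qa and C1qc had r = 0.986 and rho = 0.929 (exact permutation p = 0.00079, adjusted 0.0357; for rho adjusted p = 0.0759), and r was 0.973 without the 2 mice farthest from the median. C1qa and C1qb had r = 0.897 and rho = 0.964 (exact permutation p = 0.0016, adjusted 0.0357; for rho adjusted p = 0.0625), and r was 0.811 without the 2 farthest mice. By rho no pair was under 0.05 after adjustment. The total counts of these libraries varied in the same direction, with r to the total of 0.810 for C1qa, 0.685 for C1qb, 0.782 for C1qc and 0.918 for Cd68 (n = 7). Csf1r had r = 0.848 to the number of genes with a count and -0.858 (rho = -0.964) to the counts per molecule. For the C1q mean these r were 0.337 and -0.302 (rho = 0.536 and -0.571). Without the 2 mice farthest from the median of the library measure they were 0.662 and -0.743. The r of the C1q mean to the total counts was 0.777. Over all 33 relations to these library measures, the smallest adjusted exact permutation p was 0.0982 for r and 0.0917 for rho. The part of these measures in the correlations was not tested. Lyz2 and Itgax were the least tied to the others, with r of 0.445 and 0.580 to C1qa (exact permutation p adjusted over the 45 pairs = 0.369 and 0.215).

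**Figure D3:**
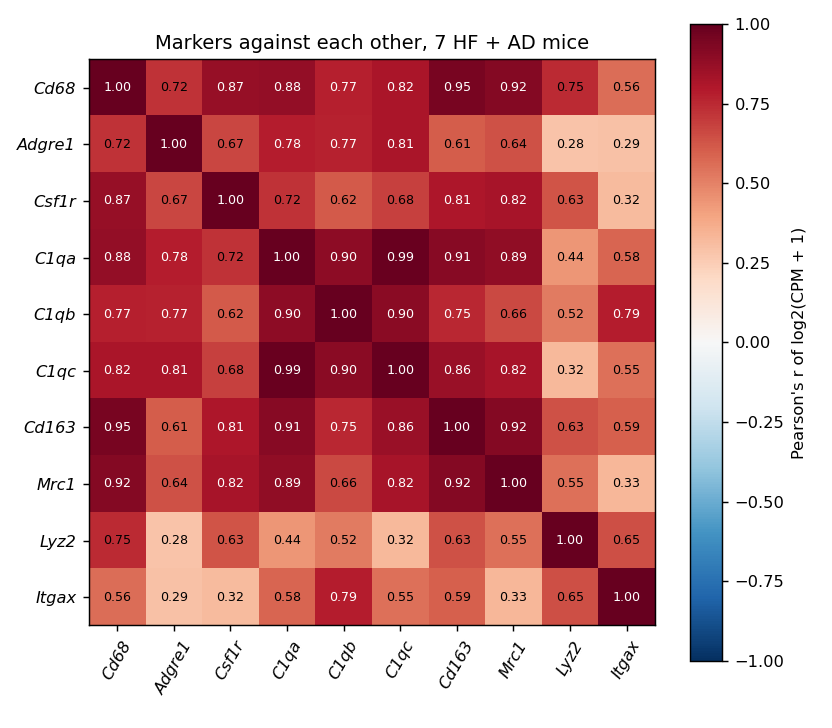
Pearson r of log2(CPM + 1) between each pair of the 10 marker genes over the 7 HF + AD mice, on a colour scale from -1 to 1. All 45 pairs are above 0, with the highest value, 0.986, between C1qa and C1qc.

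Across all 12 mice, after the group means were removed, the 13197 genes with enough counts were ordered by their r to the mean of the C1q chains, and the first 5 are named. Fgl2, a fibrinogen-like protein of macrophages and other immune cells, had r = 0.953. Mfap5, a microfibril protein, had r = 0.951, Adamts2, which trims procollagen, r = 0.944, Ogn, a small proteoglycan of the matrix, r = 0.939, and 4632428N05Rik (Vsir), an immune checkpoint receptor, r = 0.933. The other marker genes stood lower in this order, with Adgre1 202nd (r = 0.777), Csf1r 246th (0.757) and Mrc1 452nd (0.689), and Itgax last of them (-0.204). The summed level of the fibroblast list (collagens and other fibroblast markers) moved with the C1q mean at r = 0.834, as did the monocyte (0.869), pan-leukocyte (0.841), resident macrophage (0.830) and endothelium (0.824) lists. The complement list, which holds no C1q gene, had r = 0.949, the mast cell list 0.894 and the keratinocyte list 0.335 (n = 12 mice). Other phagocyte lists moved less with C1q. The alternative activation list had r = 0.769, conventional dendritic cells 0.606, growth and transcription factors 0.555 and Langerhans cells 0.455. Fc and complement receptors had 0.279, classical activation 0.123 and lipid-associated macrophages -0.130. Fibroblast sums were 9932 CPM in AD mouse 1 and 8374 and 10315 CPM in HF + AD mice 3 and 7, and from 3296 to 5282 CPM in the other mice. The group medians were 4559 CPM in AD and 4329 CPM in HF + AD, and HF + AD mouse 1 had a high C1q level at 3299 CPM. The part of the fibroblast signal in the C1q levels was not tested. These correlations are descriptions over mice that share the same depth differences, and no p is given.

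**Figure D4:**
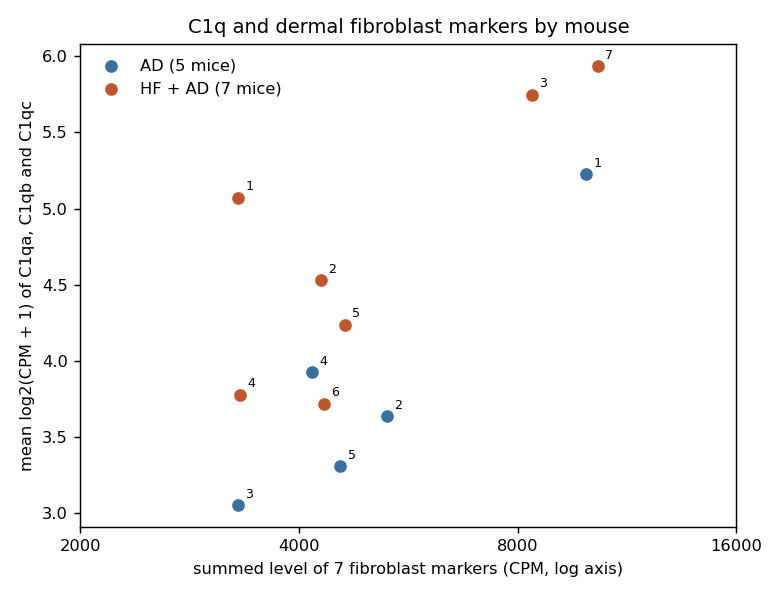
Mean log2(CPM + 1) of C1qa, C1qb and C1qc on the vertical axis against the summed CPM of the fibroblast list on the horizontal log axis, 1 point per mouse in the 5 AD and 7 HF + AD mice. AD mouse 1 and HF + AD mice 3 and 7 are at the upper right, with fibroblast sums of 8374 CPM or more.

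Other genes of the phagocyte pathway were counted by list. Of 16 tested growth factors, receptors and transcription factors of macrophages and dendritic cells, 0 were called by edgeR and 2 had an unadjusted p under 0.05, both higher, and DESeq2 called 1. Csf1, the ligand of CSF1R, had a log2 fold change of 1.34 (SE 0.45, edgeR adjusted p = 0.072), and Il34, the second ligand, of 0.79 (SE 0.77, adjusted p = 0.572). Spi1, which encodes PU.1, had -1.16 (SE 0.60, adjusted p = 0.241). Of 11 monocyte genes 0 were called by edgeR, 3 had an unadjusted p under 0.05, all higher, and DESeq2 called 2. Ccr2, the chemokine receptor by which monocytes leave the marrow, had 1.67 (SE 0.63, adjusted p = 0.104) and was called without AD mouse 1 (2.15, adjusted p = 0.0425). The log2 fold changes of Cd14, a lipopolysaccharide co-receptor, and Itgam, the integrin chain CD11b, were 2.01 (SE 0.88, adjusted p = 0.161) and 0.36 (SE 0.36, adjusted p = 0.586).

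Resident macrophage genes held 2 rises among 11 tested. Cbr2, a carbonyl reductase, rose from 24.1 ± 8.94 CPM (SD, n = 5) to 61.8 ± 22.1 CPM (SD, n = 7), with a log2 fold change of 1.36 (SE 0.27, edgeR adjusted p = 0.0083). Stab1, a scavenger receptor shared with endothelium, rose by 0.80 (SE 0.23, edgeR adjusted p = 0.0361), a call lost when any one of AD mice 2, 3 and 4 or HF + AD mice 1, 2, 6 and 7 was left out (adjusted p = 0.051 to 0.085) and in 2 other settings (adjusted p = 0.057 and 0.106). The list median log2 fold change was 0.38. Both were called without AD mouse 1.

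Of 10 genes of lipid-associated macrophages, 1 rose and 2 fell. Apoe, a lipid carrier made by macrophages, sebaceous cells and keratinocytes as well, rose from 2275 ± 791 CPM (SD, n = 5) to 5077 ± 912 CPM (SD, n = 7), every HF + AD mouse above every AD mouse, with a log2 fold change of 1.16 (SE 0.19, edgeR adjusted p = 0.0046). It was called in all 21 other fits, each single mouse left out included. Gpnmb, a glycoprotein of pigment cells and of lipid-laden macrophages, fell by 1.03 on the log2 scale (SE 0.30, edgeR adjusted p = 0.0432), and Cd9, a widely expressed tetraspanin, by 0.47 (SE 0.14, adjusted p = 0.0389). These falls were not stable: that of Gpnmb was lost without any one of AD mice 2, 4 and 5 or any HF + AD mouse but 5, and that of Cd9 without any one of AD mice 1 to 3 or HF + AD mice 1, 2, 4, 6 and 7 (adjusted p = 0.052 to 0.145). Of the 9 other settings with all 12 mice, the fall of Gpnmb was lost in 3 (adjusted p = 0.051 to 0.136) and that of Cd9 in 4 (adjusted p = 0.053 to 0.166). Library totals alone and the two-group test were among these for both genes. Trem2, the receptor for which such macrophages are known, had a count in 1 AD mouse (mouse 1, 7.89 CPM) and in 6 of 7 HF + AD mice (up to 2.48 CPM) and was too low to test. The list without AD mouse 1 had 3 higher (Apoe, Lgals3 and Cd63) and 1 lower (Gpnmb).

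Of 13 Fc and complement receptors 1 was called higher, Calr (1.07, SE 0.20, edgeR adjusted p = 0.0067), which encodes calreticulin, a chaperone of most cells that also binds C1q at the surface. It was called in all 21 other fits, and Lrp1, an endocytic receptor, was called as well without AD mouse 1 (0.57, adjusted p = 0.0291). Fcer1g, the signalling chain shared by Fc receptors, had a log2 fold change of 1.62 (SE 0.56, adjusted p = 0.0784), and Tyrobp, the adaptor DAP12, 0.14 (SE 0.50, adjusted p = 0.898). Of 13 complement genes 0 were called by edgeR or DESeq2, and 1 had an unadjusted p under 0.05, Serping1 (1.23, SE 0.41, adjusted p = 0.065), the C1 inhibitor, which was called without AD mouse 1 (1.63, adjusted p = 0.0202). C1ra and C1s1, whose proteases act with C1q, had log2 fold changes of 0.31 (SE 0.40, adjusted p = 0.683) and -0.28 (SE 0.30, adjusted p = 0.623). C4b and C3, the next components of the cascade, had 0.69 (SE 0.45, adjusted p = 0.367) and -0.57 (SE 0.59, adjusted p = 0.599).

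No gene was called by edgeR among the 7 of alternative activation, the 6 of classical activation, the 12 of conventional dendritic cells or the 6 of Langerhans cells, and at an unadjusted p under 0.05 there were 1 (higher), 2 (lower), 1 (higher) and 2 (lower). DESeq2 called 0, 1, 0 and 2. In the fit without AD mouse 1 edgeR called Tgm2 (0.98, adjusted p = 0.0424) of the first list and Sirpa (0.66, adjusted p = 0.0456) of the third. Their median log2 fold changes were 0.78, -0.31, 0.069 and -0.24. Retnla and Chil3, secreted products of macrophages under IL-4, had 1.39 (SE 0.83, adjusted p = 0.318) and 1.44 (SE 0.82, adjusted p = 0.300), and Arg1, which breaks down arginine, -0.58 (SE 0.39, adjusted p = 0.389). Il1b, a cytokine of inflammatory macrophages, had 0.12 (SE 0.54, adjusted p = 0.927). Cd207, the langerin of Langerhans cells, had -1.28 (SE 1.06, adjusted p = 0.493) at 0 to 3.81 CPM in AD and 0.174 to 1.52 CPM in HF + AD. Cd209a, a lectin of dermal dendritic cells, was at 0 in 4 of 5 AD mice and at most 1.45 CPM in HF + AD and was too low to test.

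Markers of other cells were read beside the 10 genes. Among 10 pan-leukocyte genes 0 were called by edgeR or DESeq2 (1 at an unadjusted p under 0.05), with a list median log2 fold change of 0.51, and Ptprc, which encodes CD45, had 1.02 (SE 0.58, adjusted p = 0.298). Laptm5 of this list was called without AD mouse 1 (0.91, adjusted p = 0.04997). Of 6 neutrophil genes 2 were higher and 2 lower at an unadjusted p under 0.05. The 2 lower were S100a8 (-1.53, adjusted p = 0.181) and S100a9 (-1.57, adjusted p = 0.108), which encode calcium-binding proteins abundant in neutrophils, though not only there. Neither was called with all mice or without AD mouse 1. Summed over the neutrophil list, the level was 3717 CPM in AD mouse 1, against an AD median of 264 CPM. In HF + AD the sum ran from 105 to 727 CPM, with a higher median of 398 CPM. Only Mmp9, a matrix protease that macrophages and keratinocytes also make, was called (5.61, SE 1.06, edgeR adjusted p = 0.0071). Mmp9 was at 0, 0, 3.03, 1.94 and 1.09 CPM in AD, all under what 3 molecules stand for in those libraries, and from 6.43 to 259 CPM in HF + AD with a median of 23.3, so the size of this fold is uncertain.

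T cell (7 genes), mast cell (7) and fibroblast (7) lists had 0 called by edgeR, with 1 gene each at an unadjusted p under 0.05, and DESeq2 called 0, 1 and 0 of them. The edgeR counts without AD mouse 1 were 0, 1 and 2. The fibroblast collagens Col1a1 and Col1a2 had log2 fold changes of -0.45 (SE 0.35, adjusted p = 0.460) and 0.25 (SE 0.33, adjusted p = 0.701). B cell genes were too low to test, and so was Cd3e, which encodes a CD3 chain of the T cell receptor complex. Cd3e had a count in 1 AD mouse and in 5 of 7 HF + AD mice (up to 1.38 CPM). Of 9 keratinocyte genes 2 were higher, Krt5 (0.81) and Krt14 (1.05), and 4 were without AD mouse 1. Of 11 hair shaft genes 3 were higher, Krt31 (1.14) one of them and Krt81 (0.52, adjusted p = 0.109) not, and 2 were without AD mouse 1.

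Of 7 endothelial genes 2 were higher, Kdr (1.06) one of them, while Egfl7 had 0.096 (adjusted p = 0.794), and the count was 0 without HF + AD mouse 1 or 2. Of 6 adipocyte genes 2 were higher, Pnpla2 (0.85), a lipase of many cells, one of them, but the list median was -0.21 and Cidec, a lipid droplet protein of fat cells, had -0.77 (SE 0.65, adjusted p = 0.501). The adipocyte count was 0 without HF + AD mouse 2. Of 10 skeletal muscle genes 3 were lower, Acta1 (-0.72, adjusted p = 0.0481) one of them and Myh1 (-0.72, adjusted p = 0.178) not, and the count dropped to 0 when AD mouse 1 or 2 was left out, and likewise for mice 2, 4 and 7 of HF + AD. Of 5 sebocyte genes 1 was lower, Scd1 (-0.74), and Elovl3 had -0.011 (adjusted p = 0.984), a direction that turned in other fits. The part of these shifts in the levels of the 10 genes was not tested.

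**Figure D5:**
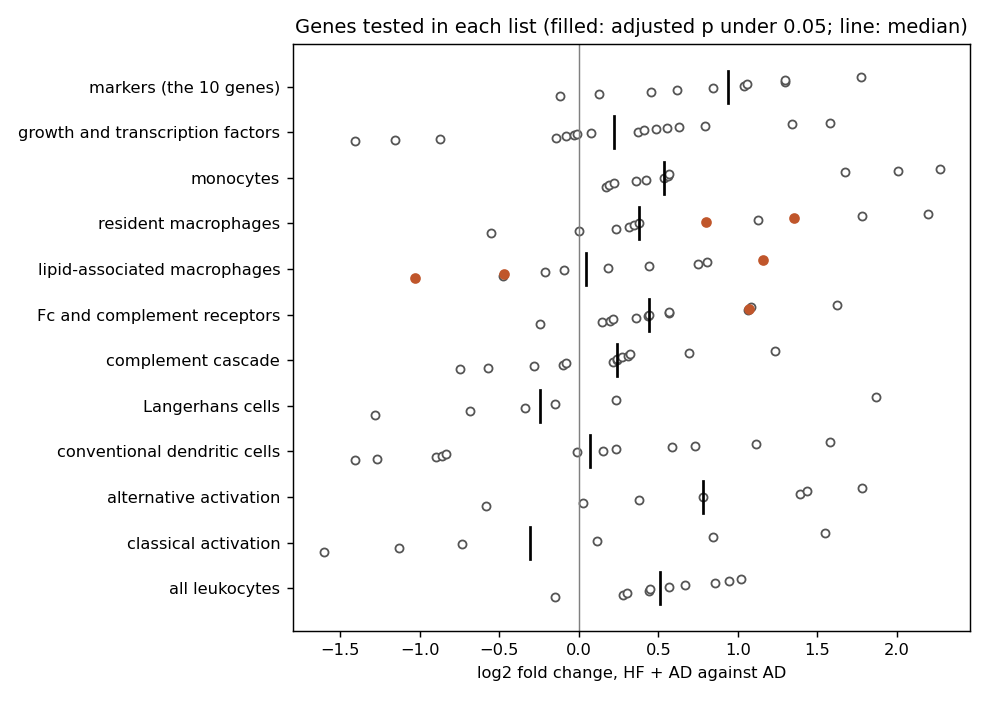
Log2 fold change, HF + AD against AD, of every tested gene of the 10 markers and of 11 lists of phagocyte, complement and leukocyte genes; each circle is 1 gene, filled where the adjusted p was under 0.05, the short line is the list median and the long line marks 0. The 10 markers have a median of 0.94 and no filled circle, and the filled circles lie in the resident macrophage, lipid-associated macrophage and Fc and complement receptor lists.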

How the data were processed

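Skin mRNA of 5 AD and 7 HF + AD mice was read from its 3′ ends (QuantSeq), and groups were taken from the labels. For each mouse the authors deposited unnormalized read counts by gene symbol, and these counts were used as they stood. The submitters' processing notes name Bowtie2, bedtools and the build mm10, and versions, counting rules and the use of strand are not given in the sources used here. Of 23282 entries, 4677 were at 0 in every mouse, and 35 symbols listed more than once were kept as separate entries. No pair of libraries was identical.

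HF + AD was compared with AD in edgeR 4.0.16 (R 4.3.3) with TMM, filterByExpr and a quasi-likelihood fit with group as the only term, adjusted over 14163 genes (Benjamini-Hochberg, threshold 0.05). TMM factors lay between 0.944 and 1.04. Single genes were compared as log2(CPM + 1), pseudocount 1, by a two-sided exact permutation test. For each library, the counts given by 1 molecule were estimated from how often a gene was at 0 when 10 to 200 counts were predicted by its fellow libraries, all molecules being copied equally. As no molecular identifiers are described, limits on zeros cover counting error only. Correlations within HF + AD used exact permutation over the 5040 orders of 7 mice. Alternatives used DESeq2 1.42.0, limma 3.58.1 (prior count 2), other scalings and filters, and each mouse left out. Other steps used Python 3.11.15, NumPy 2.4.6, SciPy 1.17.1, pandas 2.3.3 and matplotlib 3.10.9. The fits were tested on simulated data with known changes. Positions came from GENCODE M21 on GRCm38 and promoters from RefSeq (GRCm38.p6).

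The marker genes and all lists were chosen with earlier results of these data known, so they are no independent evidence of a direction. Genes named are the 10 markers; called genes of the phagocyte, complement and leukocyte lists, with a set of 21 further genes whatever their values; the 2 genes of highest mean count of each other cell type list; and the 5 genes most like C1q with a mean count of at least 20. Serping1, Lrp1, Lgals3, Cd63, Tgm2, Sirpa, Laptm5, S100a8, S100a9, Hmgxb3 and Lyz1 are outside it, picked with their values or positions in view. A further gene under this rule was tested and is counted in the lists but is not reported here. The labels number the mice from 1 in each group without saying what a shared number means.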

Additional observations from a re-analysis of the deposited data

Results flagged for a closer look

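In each group of 5 or 7 mice, a mouse was singled out where its gap to the nearest other mouse was large against the whole range of the group (Dixon's test at 95%), on the log2(CPM + 1) scale. This was done for 114 groups of values of 57 named genes. In independent groups chance alone would single out about 1 in 20, or 5.7 of 114. In all 12 were found, of which 8 were in AD mouse 1. Among the 10 markers, with 20 groups of values, there was 1. The 12 cannot be read as an excess over 5.7, because the named genes are not independent of each other. Adamts2 and Ogn were named for following the C1q mean, which among AD mice was highest in mouse 1. For Trem2, Cd209a and Cd3e all other AD mice lacked a count, so any count is singled out.

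Cd68 was at 0 in AD mouse 2, against 2.29 for the nearest AD mouse. In AD mouse 1 both Il34 and Cd14 were at 0, and Fcer1g was at 0.35 (3 counts), with the nearest AD mice at 1.94, 1.86 and 2.24. In the same mouse Trem2 was at 3.15 (87 counts) while the other AD mice were at 0. C1ra was at 5.66 in AD mouse 1, Adamts2 at 7.46 and Ogn at 4.75, each above the other AD mice, and Elovl3 was at 6.59, below them. Itgam was lowest in HF + AD mouse 6, at 2.76. Cd209a was at 0.27 (2 counts) in AD mouse 3 and Cd3e at 0.45 (4 counts) in AD mouse 5, with the other AD mice at 0. AD mouse 1 had the highest estimate of counts per molecule, 32.2, so that a gene at 0 or at a high level there can rest on very few molecules.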

How the results depend on the processing

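The count of called markers stayed at 0 under all 9 other settings with all 12 mice (3 markers were tested with at least 10 counts in every mouse, and 7 with counts divided by counts per molecule), and ran from 0 to 3 when each mouse was left out, above 0 only without AD mouse 1. Markers at an unadjusted p under 0.05 numbered 3, with limma-trend 5, and from 0 to 5 when a mouse was left out. By the exact permutation test 0 markers passed, 1 with a pseudocount of 0.1 (Cd163), 2 with a rank sum (Cd163 and C1qa), 1 with library totals alone (Cd163), and from 0 to 3 when a mouse was left out. Calls over all genes numbered 1303, and from 639 (without HF + AD mouse 2) to 1461 with a mouse left out. Calls over all lists numbered 20, with DESeq2's Wald test 31, with the two-group test 11, and from 9 to 28 with a mouse left out. Adgre1 turned from -0.12 to 0.25 (limma-trend), 0.12 (two-group test) and 0.016 (replicate block), with 1 mouse left out from -0.38 to 0.54, and its exact permutation p ran from 0.218 to 0.987. Elovl3 turned to 0.028 (library totals), 0.045 (limma-trend), 0.045 (two-group test) and 0.079 (replicate block), and Ogn to 0.13 (limma-trend), 0.11 (two-group test), 0.082 (replicate block) and 0.29 (counts per molecule). With a mouse left out, log2 fold changes that changed sign ran from -0.18 to 0.12 for Elovl3, -0.36 to 1.00 for Ogn, -0.12 to 0.57 for Adamts2, -0.19 to 0.87 for Itgax, -0.070 to 0.48 for Tyrobp, -0.43 to 0.069 for C1s1, -0.83 to 0.0093 for Arg1 and -0.16 to 0.82 for Il1b, none of them called with all mice. The log2 difference of the C1qc to C1qa ratio ran from -0.24 to 0.23. The causes were not tested. Same-numbered mice did not deviate together (r between -0.11 and 0.072 over 5 numbers), so the numbers are not taken as pairs. With the number as a block, 192 genes and 10 list genes were called, the markers stayed at 0, and of the named genes Cbr2, Stab1, Cd9, Mmp9, Pnpla2, Acta1, Kdr and Scd1 lost their calls (adjusted p from 0.055 to 0.166) and Myh1 gained one (0.041). Levels lay under what 3 molecules stand for in all 5 AD mice for Lyz2, in 4 for Adgre1 and Cd163, in 3 for Csf1r, in 2 for Cd68, C1qc, Mrc1 and Itgax and in none for C1qa and C1qb, and in 1 HF + AD mouse each for Lyz2, Adgre1 and Cd163.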

Other observations

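The proportions of the C1q chains within a library were looked at after their levels had been seen. The ratio of C1qb to C1qa counts ran from 0.642 to 2.01 in the 5 AD mice and from 0.323 to 0.789 in the 7 HF + AD mice, and 4 of the 5 AD mice lay above every HF + AD mouse. On the log2 scale the ratio was lower by 0.83 in HF + AD (exact permutation p = 0.0088, adjusted over the 3 ratios 0.0265), with exact permutation p from 0.0030 to 0.036 when each mouse was left out. The ratio of C1qc to C1qb was higher by 0.78 in HF + AD (exact permutation p = 0.024, adjusted 0.036), a difference that missed the threshold without AD mouse 1 (p = 0.058) or AD mouse 2 (p = 0.079) in the same exact permutation test. The ratio of C1qc to C1qa differed by -0.051 (exact permutation p = 0.880). A ratio within a library does not tell which chain differs. By the estimate, counts per molecule were higher in the AD libraries, where C1qc lay under what 3 molecules stand for in 2 mice. The part of the counts per molecule in these differences was not tested.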
